A study of Rattus norvegicus with 18 samples.

Results

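Late exposure was read as the difference between 2 groups of rat cortical type-I astrocytes, the 3 samples kept for 5 days on a surface coated with a fragment of beta-amyloid peptide and the 3 kept on it for 3 days. The arrays were chosen by their titles, which gave 6 of the 18 arrays in the series, and the comparison ran over every probe set other than the control probes of the array, 1263 in all, of which 1027 were bright enough to be tested. Both groups carried the same fragment, residues 25 to 35 of the peptide, and differed by label in the length of exposure alone. The other arrays were 6 controls from astrocytes grown on laminin and nitrocellulose with no peptide, 3 at 12 hours and 3 at 1 day of exposure. They served for the estimate of the spread and as reference levels. The labels give no age, strain or sex of the animals, no time in culture for the controls, and no control made for a given exposure time, so a change with exposure cannot be told apart from a change with days in culture.

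Astrocytes take up glutamate and potassium around neurons, supply lipid in particles that carry apolipoprotein E, and buffer metals through metallothioneins and iron-binding proteins. On contact with injury or aggregated peptide they can take on reactive states, in which genes of complement, adhesion and acute-phase proteins are switched on. The fragment used here is a short stretch of the amyloid peptide that aggregates readily and is widely used in culture as a stand-in for the whole peptide.

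Each array gave 1 linear signal per probe set, with a 2%-trimmed mean of 502.067 to 502.632. Whether the samples came from separate cultures is not stated, so a p-value here measures the spread among these arrays, possibly a technical one, and the number of arrays limits the precision. All values are RNA from whole cultures, in which fewer cells of a type and less RNA per cell cannot be told apart. Of 23 listed astrocyte markers 11 were on the array, and 10 of them lay above a signal of 44.9 on all 6 arrays. Gfap, the filament protein most used to identify astrocytes, was not among the named probe sets, nor were App and Fn1. Vim, the intermediate filament vimentin, had signals of 12554.5 to 15247.7 at 3 days and 14018.1 to 18831.2 at 5 days. The summed signal of the 11 astrocyte markers was 32259.5, 34808.7 and 34507.7 at 3 days and 47346.3, 49400.2 and 49012.4 at 5 days, so the 5 days arrays held more of it without overlap. In the controls it ran from 29482.3 to 43591.6. Vim was the largest part of the sum. On 3 days array 3 the sum was held up by Gja1, far higher there than on arrays 1 and 2, while S100b, Slc1a3 and Mt3 were far lower. The sum therefore hides how that array differed. The 10 neuron markers on the array summed to 4093.5 to 5973.2 at 3 days and 4971 to 5347.7 at 5 days, and the 6 oligodendrocyte and Schwann cell markers to 1227.3 to 1977 and 1756.9 to 1916.4. The only microglial marker present, Itgam, had 47.7 to 77 at 3 days and 22.3 to 60.5 at 5 days, so microglia were hardly covered. Their part in the results was not tested.

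One of the 3 days arrays stood apart from the other two. Over the 1027 tested probe sets, 3 days arrays 1 and 2 had a Pearson correlation of log2 signal of 0.958 with each other, while array 3 had 0.80 to 0.81 with them, 0.945 with control 2 and 0.944 with the third array of the 1 day group. The fibroblast, meningeal and vascular markers Pdgfrb, Igf2 and Igfbp2 summed to 30720 on that array and to 12131.2 to 19350.3 on the other 5. Igf2 alone had 8743.8 on it against 229.3 to 514.7. The 3 arrays at 5 days were alike, at 0.944 to 0.964. They were about as close to controls 4 to 6, at 0.936 to 0.964, and less close to control 3, at 0.895 to 0.904. Conversely, 3 days arrays 1 and 2 had 0.949 to 0.950 with control 3 and 0.913 to 0.939 with controls 4 to 6. Results are therefore given without 3 days array 3 where that matters, and beside the values in the controls. As the controls differed among themselves along the same lines, a second reading took the arrays in the 5 clusters that their own values form, in which the 5 days arrays share a cluster with controls 4 to 6, 3 days arrays 1 and 2 with control 3, and 3 days array 3 with control 2 and 1 day array 3. With these clusters as a block, the 5 days arrays are set against controls 4 to 6, 3 days arrays 1 and 2 against control 3 alone and 3 days array 3 against control 2 beside 1 day array 3, so the 3 days side rests on single controls. The clusters were formed from the same signals that are compared.

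Few genes separated the exposure times beyond the spread. Tf, which encodes the iron carrier transferrin, and C3, the central protein of the complement cascade, rose between 3 and 5 days, Tf by 3.67-fold and 9.97-fold on 2 of its 3 probe sets and C3 by at least 23.6-fold on 1 of its 2. The other C3 probe set read 4.42-fold without passing. In limma with Benjamini-Hochberg adjustment, 3 of 1027 probe sets passed an adjusted p of 0.05 (0.292%), all 3 higher at 5 days and from these 2 genes. No probe set was lower past the threshold. At an unadjusted p under 0.05 there were 51 higher (4.97%) and 67 lower (6.52%), and the 3 arrays of each time did not overlap for 112 probe sets that were higher (10.9%) and 133 that were lower (13%). The median log2 difference over all tested probe sets was -0.17, and 62.6% of the differences were negative. Without 3 days array 3, no probe set passed in limma, the smallest adjusted p was 0.069, and 92 had an unadjusted p under 0.05. The count was also 0 without 3 days array 1, without 5 days array 1 or without 5 days array 3, with 125, 112 and 94 probe sets at an unadjusted p under 0.05. With the spread taken from the 3 days and 5 days arrays alone, 18 probe sets passed, all higher at 5 days. With array weights, which were lowest for 3 days array 3, 96 passed, 51 higher and 45 lower, so the count and the lack of lower probe sets depend on the fit.

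**Figure D1:**
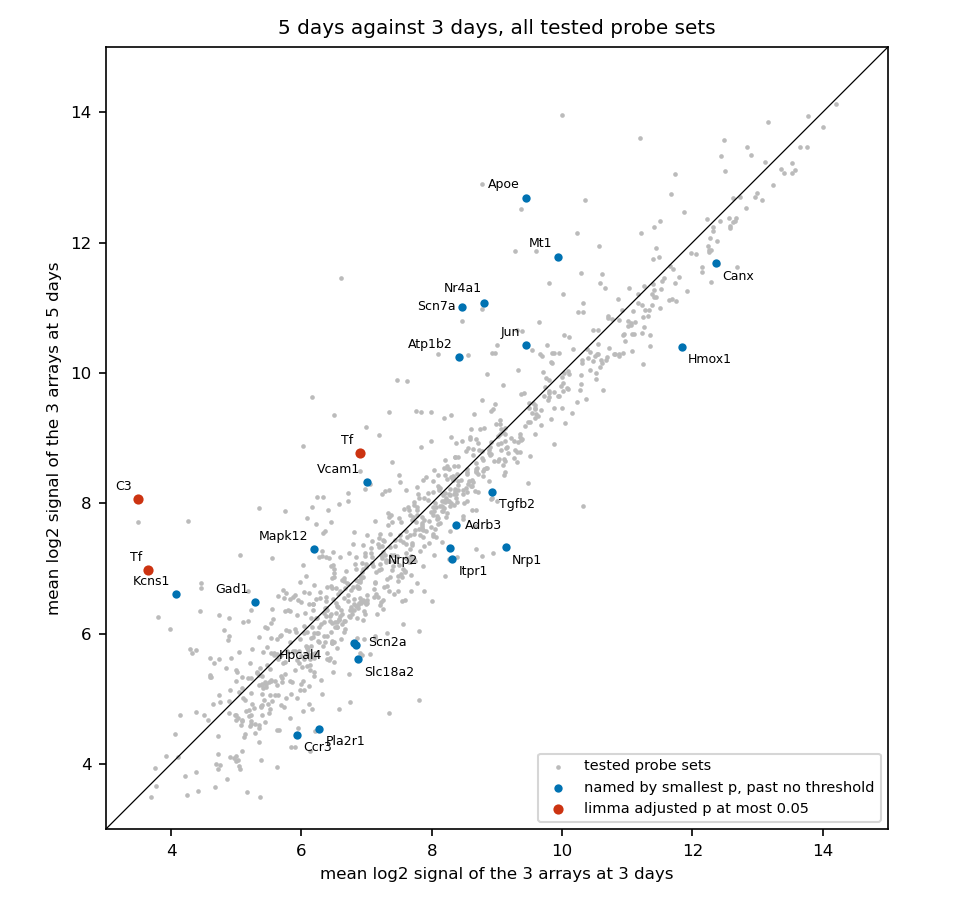
Mean log2 signal of the 3 arrays at 5 days (vertical axis) against the 3 arrays at 3 days (horizontal axis) for the 1027 tested probe sets, with the line of equal signal. Red points are the 3 probe sets that passed an adjusted p of 0.05, 2 of Tf and 1 of C3, all above the line, and blue points are the other genes named by smallest p, which did not pass.

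Transferrin binds ferric iron outside cells and delivers it through its receptor. On the most abundant of the passing probe sets, D38380_g_at, Tf had signals of 104.7, 145.3 and 110.9 at 3 days and 572.4, 393.8 and 370.1 at 5 days. All 3 arrays at 5 days lay above all 3 at 3 days, and above all 6 controls, which ran from 130.0 to 278.6. The difference was 1.88 on the log2 scale (SE 0.31, limma adjusted p = 0.0136, n = 3 and 3). The probe set U31866_g_at read the same way at lower signals, with 6.6, 10.1 and 15.6 at 3 days and 160.3, 102.5 and 120.3 at 5 days, against 11.6 to 78.8 in the controls. Its difference was 3.32 (SE 0.56, limma adjusted p = 0.0136), and since a pair of its 3 days signals lay under the floor of 11.3 to which low values were raised, the size depends on that floor. The third Tf probe set, D38380_at, had 279.2, 157.3 and 230.4 at 3 days and 762.2, 667.7 and 632.7 at 5 days, a difference of 1.66 that did not pass (limma adjusted p = 0.218). Across the series Tf on D38380_g_at was lowest at 12 hours, with 94.4 to 104.3, and had 144.1 to 233.7 at 1 day, so the 5 days arrays held the highest signals of all 18. Without 3 days array 3 the 2 passing probe sets kept differences of 1.82 and 3.47, with the same adjusted p, 0.069. Blocked by the 5 clusters they were 1.07 and 1.74 (limma adjusted p = 0.577 and 0.703), and the third probe set had 0.089 (0.991).

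C3 is cleaved during complement activation, and astrocytes in reactive states are among its sources in brain. On the probe set M29866_s_at its signals were 5.1, 4 and 10.1 at 3 days, all under the floor of 11.3, and 146.3, 385.3 and 337.5 at 5 days. The groups were fully separate, and the 3 days level is known only as a bound. The difference against the floor was 4.56 on the log2 scale (SE 0.88, limma adjusted p = 0.0334). The second probe set, X52477_at, had 48.3, 30.9 and 24.7 at 3 days and 103.9, 167.7 and 182.9 at 5 days, also separate, with a difference of 2.14 that did not pass (limma adjusted p = 0.0902). The levels outside the comparison were uneven. On M29866_s_at controls 1 to 4 had 17.3, 10.9, 9.4 and 23.8, controls 5 and 6 had 136.6 and 171.1, the 12 hours arrays 73.2 to 119.7 and the 1 day arrays 11.7 to 18.4. The lowest 5 days array thus lay within the range of the controls, and C3 was low at 1 and 3 days between higher values at 12 hours and 5 days. C3 kept a difference of 4.56 without 3 days array 3 (limma adjusted p = 0.139), and had 1.70 with the 5 clusters as a block (0.841).

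The upstream sequence of both genes is shown because they are the genes that passed, and because each holds 1 match to TTNNGCAA, the letters searched for as a core of C/EBP type, a family of factors known for acute-phase genes of the liver. The windows are the 250 bases before the annotated start in RefSeq (build GRCr8), both on the minus strand, printed 5′ to 3′ with the match in capitals.
Tf promoter, chr8:112695377-112695626: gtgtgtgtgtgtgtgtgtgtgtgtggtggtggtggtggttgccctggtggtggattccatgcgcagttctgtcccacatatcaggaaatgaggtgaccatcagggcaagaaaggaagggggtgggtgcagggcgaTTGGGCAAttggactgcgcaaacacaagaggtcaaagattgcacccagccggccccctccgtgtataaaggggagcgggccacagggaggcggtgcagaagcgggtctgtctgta
C3 promoter, chr9:2201340-2201589: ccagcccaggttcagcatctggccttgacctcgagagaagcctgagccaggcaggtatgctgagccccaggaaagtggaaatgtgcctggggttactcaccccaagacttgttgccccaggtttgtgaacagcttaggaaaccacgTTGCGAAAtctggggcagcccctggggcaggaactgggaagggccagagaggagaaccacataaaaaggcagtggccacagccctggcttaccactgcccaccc
The match in Tf begins 115 bases before the start. The match in C3 lies on the opposite strand of the window and begins 104 bases before the start. Of 33469 windows of the same length, 9.217% hold such a match on either strand, so it is a common feature, and a match is a description of letters and not a site shown to be bound.

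The metallothioneins, small cysteine-rich proteins that bind zinc and copper, had wide gaps between the times without passing the test. Mt1 had 1001.9, 874.8 and 1087.2 at 3 days and 3207.2, 3788.6 and 3601.7 at 5 days. The groups were separate, with a difference of 1.84 (SE 0.45, limma adjusted p = 0.0902). Mt2A had 1157.1, 1242.7 and 735.2 at 3 days and 17805, 14537.3 and 15526.3 at 5 days, a difference of 3.96 (SE 1.33, limma adjusted p = 0.242). The controls were divided in the same way, with 16156.3, 12608.9 and 13663.7 for Mt2A in controls 4 to 6 and 1798.4, 461.3 and 516.4 in controls 1 to 3. This division enters the SE. With the 5 clusters as a block the difference was -0.81 for Mt2A and 0.03 for Mt1. Mt3, the form enriched in brain, had 1492.2, 1842 and 170.2 at 3 days and 2914.5, 4629.4 and 3901.6 at 5 days, and its difference was 2.27 with all arrays and 1.18 without 3 days array 3. Metallothionein transcripts are much alike, and how far their probe sets share signal was not tested.

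The promoters of Mt1 and Mt2A are neighbours on 1 chromosome and are shown because both genes differed in the same direction by a wide margin. Capitals mark the core of the metal response element, searched as TGCACNC or TGCGCNC on both strands. Mt1 holds 6 matches and Mt2A 4. At least 1 match is found in 20.57% of the 33469 windows, and the share with as many as these promoters was not counted. A match describes letters and is not a site shown to be bound. Both windows are the 250 bases before the start, on the minus strand of GRCr8 in RefSeq.
Mt1 promoter, chr19:10832976-10833225: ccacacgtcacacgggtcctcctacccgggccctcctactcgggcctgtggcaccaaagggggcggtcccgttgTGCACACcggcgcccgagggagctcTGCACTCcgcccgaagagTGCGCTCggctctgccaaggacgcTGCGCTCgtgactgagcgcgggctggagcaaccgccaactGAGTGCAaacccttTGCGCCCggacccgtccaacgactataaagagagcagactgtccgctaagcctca
Mt2A promoter, chr19:10838709-10838958: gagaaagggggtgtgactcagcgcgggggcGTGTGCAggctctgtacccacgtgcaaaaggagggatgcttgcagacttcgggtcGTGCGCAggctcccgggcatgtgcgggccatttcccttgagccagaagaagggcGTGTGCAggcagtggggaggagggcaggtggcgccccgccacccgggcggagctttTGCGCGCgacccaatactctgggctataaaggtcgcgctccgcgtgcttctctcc

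Other genes of iron and heme handling went different ways. Hmox1, the heme oxygenase that frees iron from heme and is a common stress gene, had 3795.5, 4095.7 and 3142.4 at 3 days and 785.5, 1850.1 and 1703.2 at 5 days. The 3 days arrays lay above the 5 days arrays and above all 6 controls, whose highest value was 3049.6, and the difference was -1.43 (SE 0.47, limma adjusted p = 0.232). The other Hmox1 probe set had -1.06 (limma adjusted p = 0.329). Aco1, the iron regulatory protein that also acts as an aconitase, had a difference of -0.62, and Tfrc, the transferrin receptor, one of 0.44. Of the 7 tested genes of iron, heme and metal handling 1 passed the test, Tf, beside 0.292% of all probe sets. The median over the 7 was 1.66, which is the value of Tf itself on D38380_at, beside -0.17 for all probe sets. Mt1, Mt2A and Mt3 lay above it, and Tfrc, Aco1 and Hmox1 below. The median was 1.18 without 3 days array 3 and 0.03 with the 5 clusters as a block. In the oxidative stress list, which holds the same metallothioneins and Hmox1, none of 9 passed in limma and the median was 0.06. There Sod2, the mitochondrial superoxide dismutase, had 781.1, 1071.1 and 989.4 at 3 days against 528.9, 529.5 and 395.2 at 5 days, without overlap and without passing (difference -0.97).

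**Figure D2:**
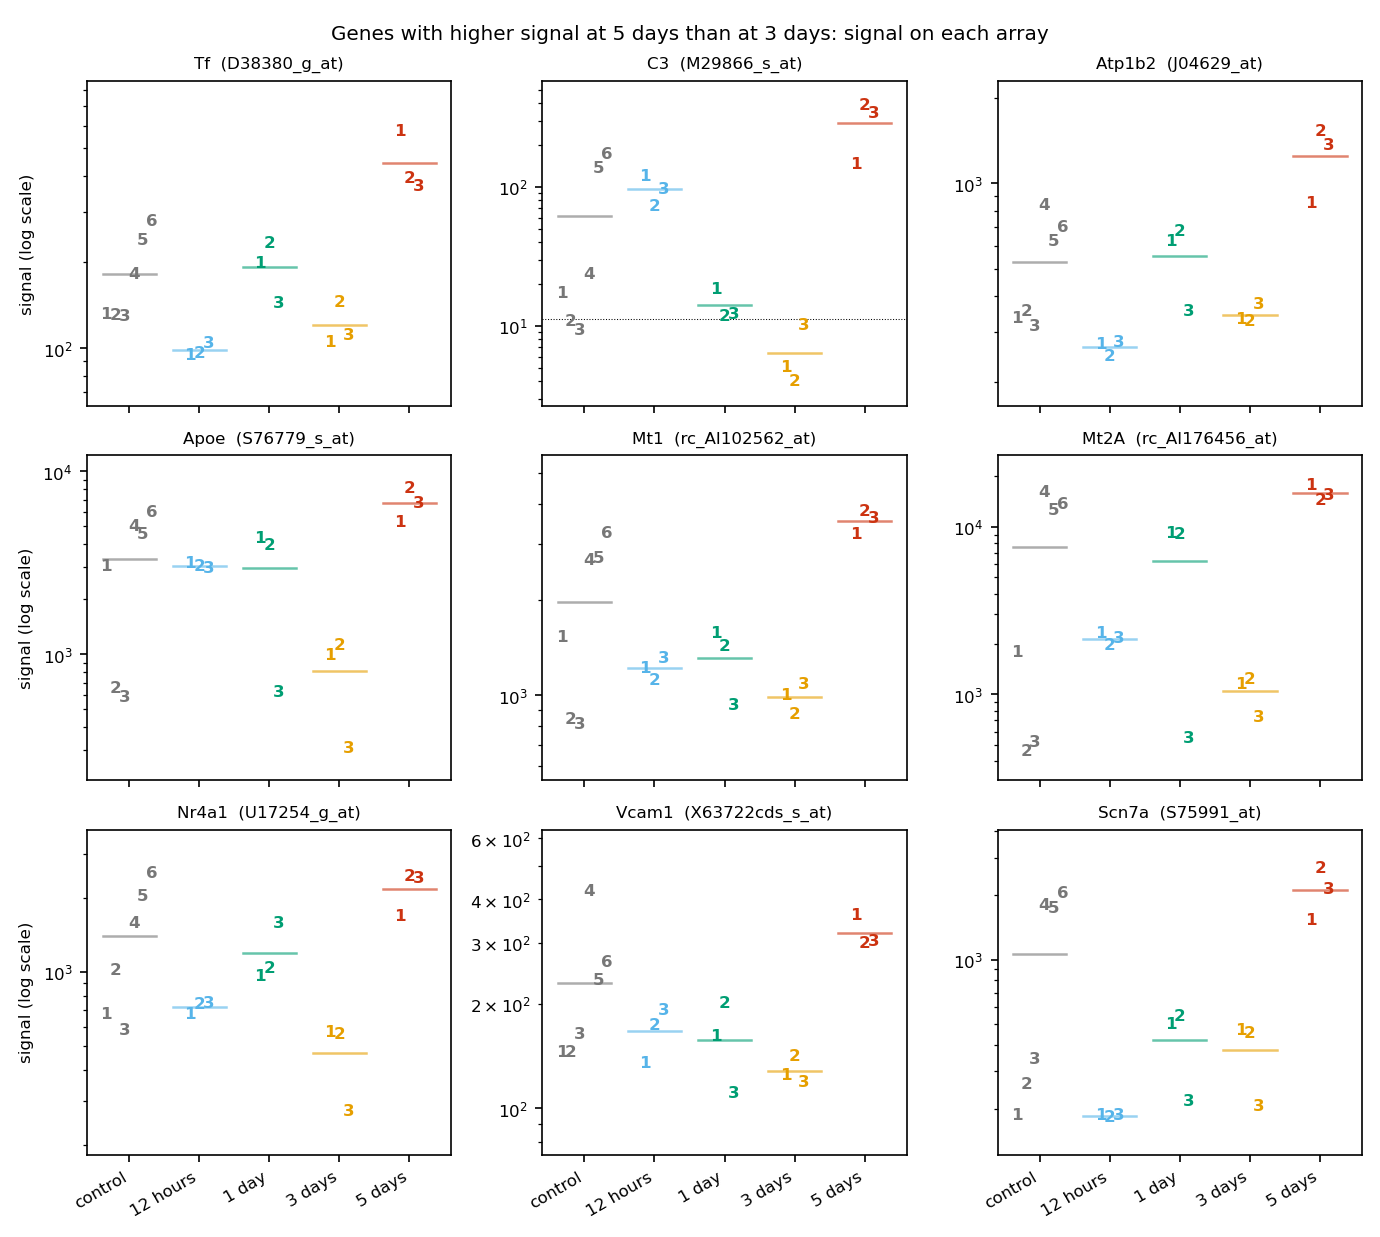
Signal (log scale) of 9 named genes whose signal was higher at 5 days than at 3 days, by group, with each array shown by its replicate number, the group mean as a line and the floor of 11.3 dotted in the C3 panel. Tf at 5 days lies above all other arrays, whereas Mt2A, Scn7a and Apoe at 5 days lie beside controls 4 to 6 or slightly above them, with controls 2 and 3 beside the 3 days arrays or near them.

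Apoe, the main lipid carrier of astrocytes, had 985.5, 1125.7 and 308.1 at 3 days and 5296.7, 8126.8 and 6709.7 at 5 days on the probe set S76779_s_at. The groups did not overlap, the difference was 3.24 (SE 0.91, limma adjusted p = 0.146), and a second probe set had 2.30 (0.158). Controls 4 to 6 had 4549.5 to 5972.9 and controls 2 and 3 had 652.2 and 583.4, and with the 5 clusters as a block the difference was 0.34. Atp1b2, the glial beta subunit of the sodium pump and an adhesion molecule of glia, came close to the threshold. It had 331.9, 326.8 and 374.9 at 3 days and 854.7, 1531 and 1361.6 at 5 days. The 5 days arrays were all above the highest control, at 836.2, and the difference was 1.82 (SE 0.38, limma adjusted p = 0.0514). The second Atp1b2 probe set had a difference of 3.46 (0.0902). With the 5 clusters as a block they were 0.69 and 1.47 (limma adjusted p = 0.737 and 0.879). The other 8 genes of the list of sodium pump, calcium pump and exchanger subunits lay between -0.45 and -0.15, and the list median was -0.27.

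Among the glutamate transporters, the size for Slc1a3 rested on 3 days array 3. Slc1a3, which clears glutamate into astrocytes, had 2396.4, 2434.5 and 293.1 at 3 days and 4874.2, 4422.6 and 4329.3 at 5 days on its brightest probe set, S59158_at. All 3 days arrays lay below the 5 days arrays, array 3 by far the most, and the difference of 1.92 became 0.91 without it. None of the 4 Slc1a3 probe sets passed in limma (differences 2.21, 1.92, 1.84 and -0.67). Slc1a2, the other main glial transporter, had 55.2, 58.7 and 69.3 against 79.3, 74.4 and 80.6 on its brightest probe set, a difference of 0.36. Its other probe sets had 1.01, without overlap between the times, and 0.18, and with the 5 clusters as a block the 3 had -0.58, 1.38 and -0.13. Glul, the glutamine synthetase that follows uptake, had 5909.8, 6621.2 and 4981.2 against 7126.5, 9839.4 and 9689.1, a difference of 0.60 (limma adjusted p = 0.415), and its other probe sets had 0.79, 0.60 and 0.30. Slc1a1, a transporter known mainly from neurons, had 141.5, 104.9 and 158.8 against 427.5, 261.5 and 277, a difference of 1.24 that did not pass. The enzyme Gad1, which makes GABA, had 46.3, 44.3 and 29.3 at 3 days and 82.9, 99.5 and 86.3 at 5 days, without overlap (difference 1.19, limma adjusted p = 0.157). Of the 6 tested genes of glutamate uptake and use none passed in limma, and 3 were higher at an unadjusted p under 0.05, as were 4.97% of all probe sets. The median was 0.89, and -0.066 with the 5 clusters as a block.

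S100b and Gja1 showed the same dependence. S100b, a protein that binds calcium in astrocytes, had 555.2, 681 and 20 at 3 days and 783.4, 1056.7 and 1002.4 at 5 days, a difference of 2.26 that was 0.61 without 3 days array 3. Its second probe set, of low signal, had -0.24. Gja1, the gap junction protein connexin 43, had 1218.9, 1264.1 and 11591.7 at 3 days and 1799, 1313.2 and 1058.6 at 5 days, and its difference of -0.95 became 0.13 without that array. Vim differed by 0.17. Over the 11 astrocyte markers none passed in limma, and 7 were higher without overlap and none lower, beside 10.9% and 13% of all probe sets. The median was 0.83, or 0.49 without 3 days array 3 and -0.05 with the 5 clusters as a block.

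Genes of reactive astrocytes were divided. Of 12 tested, C3 and Tf passed and were higher, beside 0.292% of all probe sets, on probe sets other than those used for the median. This list, like the others, was chosen with earlier results of these data known, so its share is a description and no test of the list. The median was 0.58 with all arrays and -0.12 without 3 days array 3. Vcam1, an adhesion molecule for leukocytes that inflamed cells put on their surface, had 124.5, 141.1 and 119.3 at 3 days and 359.8, 298.9 and 302.3 at 5 days. The groups were separate, with a difference of 1.32 (SE 0.35, limma adjusted p = 0.125), and controls 4 to 6 had 234.1 to 422.2. Cd44, a receptor for hyaluronan, had 37, 24.6 and 26.9 at 3 days and 11.8, 3.9 and 18.9 at 5 days, near the floor (difference -1.09). Stat3, a transcription factor of reactive gliosis, had 3446.7, 3626.9 and 7385.6 against 3063, 3363.6 and 2616, separate by a narrow margin (difference -0.59). It was by far the highest on 3 days array 3, so the size leaned on that array. Ptgs2, the inducible cyclooxygenase, had 802.4, 768.5 and 219.8 against 453.4, 200.9 and 195.2, which overlap.

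The cytokine and chemokine list had 25 tested genes, of which C3 alone passed, beside 0.292% of all probe sets. The list median was -0.23. Il18, an interleukin released through the inflammasome, had 289.5, 277.6 and 863.6 at 3 days and 109.6, 210.9 and 167.3 at 5 days (difference -1.39), and Ifng, which encodes interferon gamma, had 47.6, 71.1 and 45.1 against 18.7, 34 and 40.1. Neither passed, though both were lower on every 5 days array, and the size for Il18 leaned on 3 days array 3. The chemokine receptor Ccr3 had 49, 51.2 and 90.3 against 31.2, 7.2 and 29 (difference -1.49, limma adjusted p = 0.146). Tgfb2, a growth factor that restrains inflammation and promotes matrix, had 641.3, 534.2 and 339.8 at 3 days and 291.5, 261.7 and 313.3 at 5 days, separate by a narrow margin, with a difference of -0.76 (limma adjusted p = 0.241) that was -1.02 without 3 days array 3.

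Immediate early genes, which cells transcribe within minutes of a stimulus, had a median difference of 0.94 over 9 tested genes, and none passed in limma. Nr4a1, an orphan nuclear receptor of this class, had 572.7, 561.1 and 273.7 at 3 days and 1681.6, 2440.3 and 2396.2 at 5 days. The groups were separate, with a difference of 2.27 (SE 0.48, limma adjusted p = 0.0514), and a second probe set had 2.20 (0.0564). Controls 4 to 6 had 1570.4, 2029.3 and 2502.5, so the 5 days arrays were not above them, and with the 5 clusters as a block the differences were 0.94 and 1.16. Jun, a subunit of the AP-1 factor, had 754.2, 809 and 559 at 3 days and 1389, 1558 and 1198.9 at 5 days (difference 0.98, limma adjusted p = 0.146). Its partner Junb had 693.9, 617.1 and 778.9 against 876.8, 1748.6 and 1652.6, and Fos had 2563.5, 2119.3 and 2489.9 against 3581.2, 5109.3 and 5170.2, both separate with differences of 0.98 and 0.94. Egr1, a zinc finger factor, also did not overlap between the times, at 0.44. Fosl2 and Jund had -0.21 and -0.06. The median of the list was 0.54 without 3 days array 3 and 0.28 with the 5 clusters as a block.

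**Figure D3:**
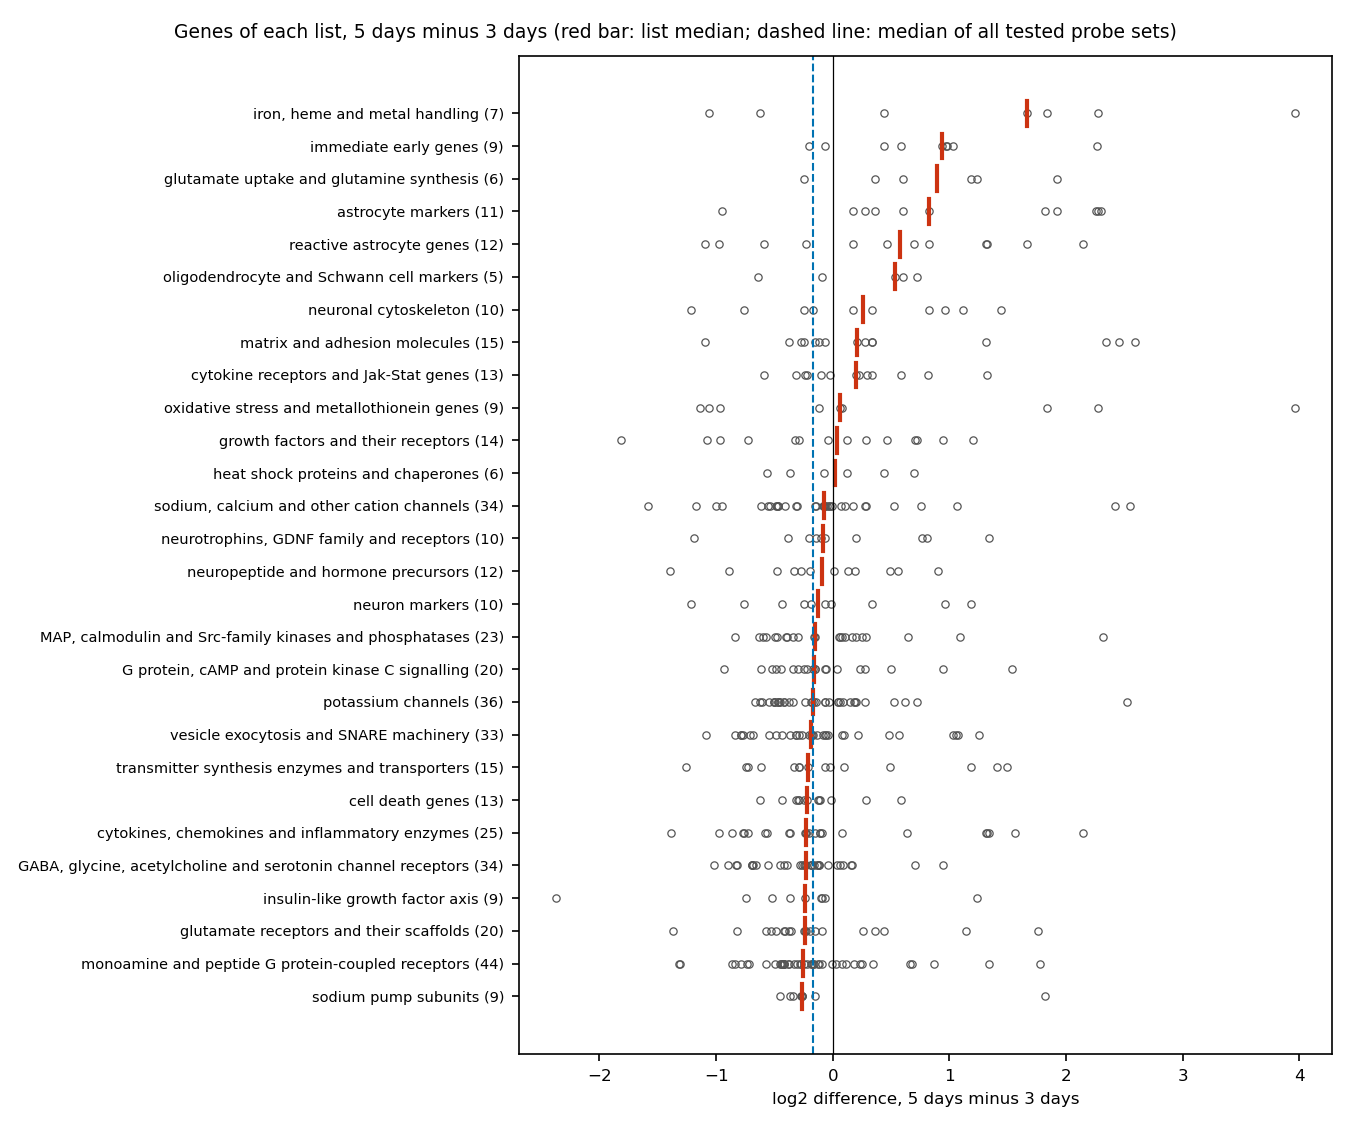
Log2 difference of each tested gene, 5 days minus 3 days (horizontal axis), for each list with at least 5 tested genes, numbers in brackets, with the list median as a red bar and the median of all probe sets, -0.17, as a dashed line. The iron, heme and metal list has the highest median, 1.66, which is the value of Tf, with only metallothioneins above it. The receptor, channel and vesicle lists lie near the dashed line.

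The guidance receptors Nrp1 and Nrp2, neuropilins that bind semaphorins and vascular growth factors, had lower signals at 5 days. Nrp2 had 255.6, 340.4 and 345.1 at 3 days and 190.2, 159.4 and 132.7 at 5 days. The 3 days arrays lay above all 6 controls, which reached 202.7, and the 5 days arrays lay within the range of the controls, with a difference of -0.97 (SE 0.22, limma adjusted p = 0.0645). Leaving out 3 days array 3 gave -0.89 (limma adjusted p = 0.203) and the 5 clusters as a block -0.84 (0.577). The size for this gene thus moved little between the readings, while its adjusted p rose. Nrp1 had 376.7, 382.8 and 1237.5 against 213, 140.1 and 137.4, a difference of -1.81 (limma adjusted p = 0.223) that was -1.25 without 3 days array 3. The growth factor list that holds both had 14 tested genes with a median of 0.04, none past the threshold in limma and 3 lower at an unadjusted p under 0.05, beside 6.52% of all probe sets.

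Matrix and surface molecules of glia were mixed. Bcan, the proteoglycan brevican, had 647.1, 658.6 and 102.8 at 3 days and 2100.2, 1549 and 1745.2 at 5 days, without overlap. Its difference of 2.34 leaned on 3 days array 3, by far the lowest. Controls 4 to 6 had 1187.5 to 2235. Cntn1, the adhesion molecule contactin 1, had 16.3, 10.2 and 14.8 against 268.1, 25.8 and 64.5 (difference 2.45), with most of its 5 days signal on array 1. Ncan, the proteoglycan neurocan, had 3430, 3199 and 21.7 against 2574.7, 4367.3 and 4638.6, so its difference of 2.59 came from 3 days array 3. None of these passed the test in limma, and the median over 15 genes was 0.21.

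The medians of the ion channel lists lay near that of the whole array. The 36 potassium channel genes had a median of -0.17 and the 34 sodium, calcium and other cation channel genes one of -0.08, and none passed in limma. Single genes had wide gaps. Scn7a, a sodium-sensing channel of glia, had 468.1, 451.9 and 206.4 at 3 days and 1532.5, 2697.3 and 2128.9 at 5 days (difference 2.55, SE 0.82, limma adjusted p = 0.218). A second Scn7a probe set had 272.2, 305.7 and 7.1 against 2527, 3077.3 and 2820.7. Controls 4 to 6 had 1737.7 to 2039.3 on the first of these and controls 1 to 3 had 186.8 to 343.1, and with the 5 clusters as a block the difference was 0.06. Kcns1, a silent subunit of voltage-gated potassium channels, had 17.5, 15.8 and 17.5 against 58.2, 138.9 and 114.7, with 104.7 to 134.9 in controls 4 to 6 and 13.8 to 17.4 in controls 1 to 3 (difference 2.53, limma adjusted p = 0.211).

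Channel genes with lower signals had smaller differences. Scn2a, a neuronal sodium channel, had 106, 104.3 and 133.9 at 3 days and 58.9, 51.4 and 60.9 at 5 days, without overlap (SE of the log2 difference 0.27, 3 days over 5 days 2.0-fold, limma adjusted p = 0.127). Itpr1, which releases calcium from the endoplasmic reticulum, had 270.2, 325.4 and 370 against 145.3, 121.6 and 160.6 on J05510_at (difference -1.17, limma adjusted p = 0.157). Its other probe sets disagreed, at -1.65 and -0.03, and the last of these was above 0 under quantile normalization (0.04), median centring (0.03) and cyclic loess (0.17). Cacna1c, an L-type calcium channel, had 334.6, 324.5 and 764.9 against 179.4, 111.9 and 153.5 (difference -1.58), without overlap. Its size leaned in part on 3 days array 3, by far the highest.

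Among the remaining genes of smallest p, Slc18a2, the vesicular monoamine transporter, had 113.8, 96.9 and 143.3 at 3 days and 71.9, 42.7 and 37.6 at 5 days. The groups were separate, and the difference was -1.26 with all arrays (SE 0.31, limma adjusted p = 0.0902). It was -1.11 without 3 days array 3 (limma adjusted p = 0.273) and -1.66 with the 5 clusters as a block (0.424). Adrb3, an adrenergic receptor, had 362.9, 316.2 and 321.8 against 211.4, 210.3 and 186.4 (difference -0.72). Canx, a chaperone of the endoplasmic reticulum, had 4669.8, 5101.2 and 6175.2 against 3939.2, 3277.6 and 2726.6 (difference -0.69). The neuronal calcium sensor Hpcal4 had 164.6, 94.7 and 89.5 against 44.8, 57.4 and 76.5 (difference -0.94), and its second probe set had -0.78 with overlap between the times. Pla2r1, a phospholipase A2 receptor, had 69.6, 89.6 and 73.8 against 32, 34.3 and 10.2 (difference -1.74). Mapk12, a p38 kinase, was higher at 5 days on every array, with 113.3, 82.8 and 42.4 against 138.4, 147.2 and 189, a difference of 1.09 that was 0.69 without 3 days array 3. None of these 6 genes passed the test in limma. In the fit with all arrays the limma adjusted p ran from 0.0902 to 0.235, apart from 0.530 on the second Hpcal4 probe set.

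**Figure D4:**
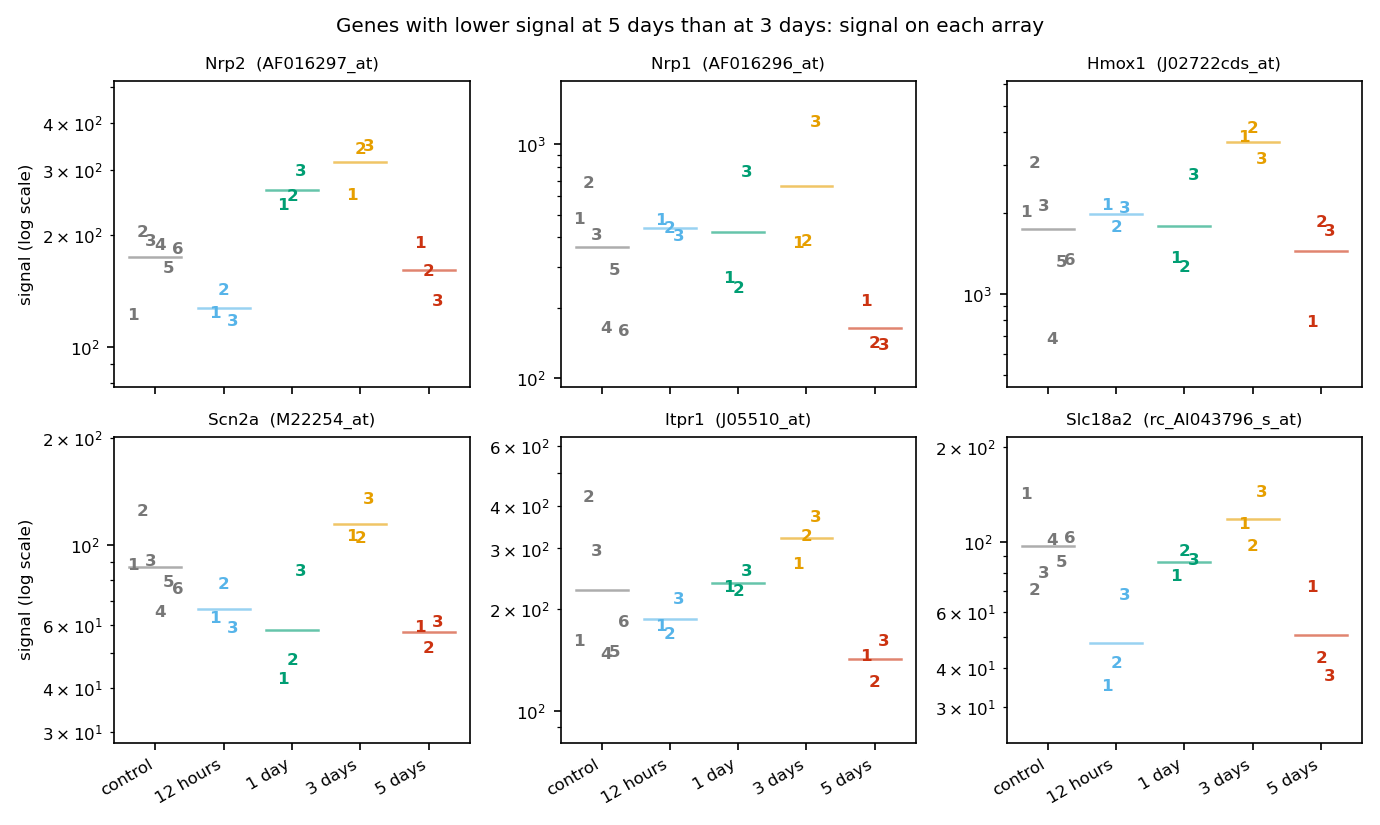
Signal (log scale) of 6 named genes whose signal was lower at 5 days than at 3 days, by group, with each array shown by its replicate number and the group mean as a line. For Nrp2 and Hmox1 the 3 days arrays lie above all 6 controls, whose highest values are 202.7 and 3049.6.

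Most differences were smaller when the arrays were blocked by their 5 clusters. For the 53 probe sets of the named genes, the 5 clusters as a block gave differences with a median ratio to the plain ones of 0.306, and 14 of the 53 changed sign. Many of these genes were picked by small p in the plain fit, and the clusters were formed from the same signals. The ratio is therefore a description and no test of the differences. Without 3 days array 3 the ratio was 0.884 and 1 of 53 changed sign. With the 5 clusters as a block, the differences were under 0.5 of the plain size or of the other sign for 36 of the 53. Examples chosen after their values were seen were Ccr3 (-1.79), Mapk12 (0.98), Gad1 (0.85), Hpcal4 (-0.82 on D13125_at) and Gja1 (-0.79), which kept most of their size, and Vcam1 (0.40 on X63722cds_s_at), Jun (0.30), Nrp1 (-0.60), Tgfb2 (-0.23), Adrb3 (-0.14), Itpr1 (-0.09 on J05510_at) and Hmox1 (-0.18 on J02722cds_at), which did not. The second Hpcal4 probe set changed sign, to 0.35. Gja1 had 0.13 without 3 days array 3. With the 5 clusters as a block 1 probe set passed, M91808_at, which carries no gene name here, at -1.80 where the plain difference was 0.81. Exposure time and the cluster of the arrays cannot be told apart by label, because no cluster of the 5 holds arrays of both times.

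**Figure D5:**
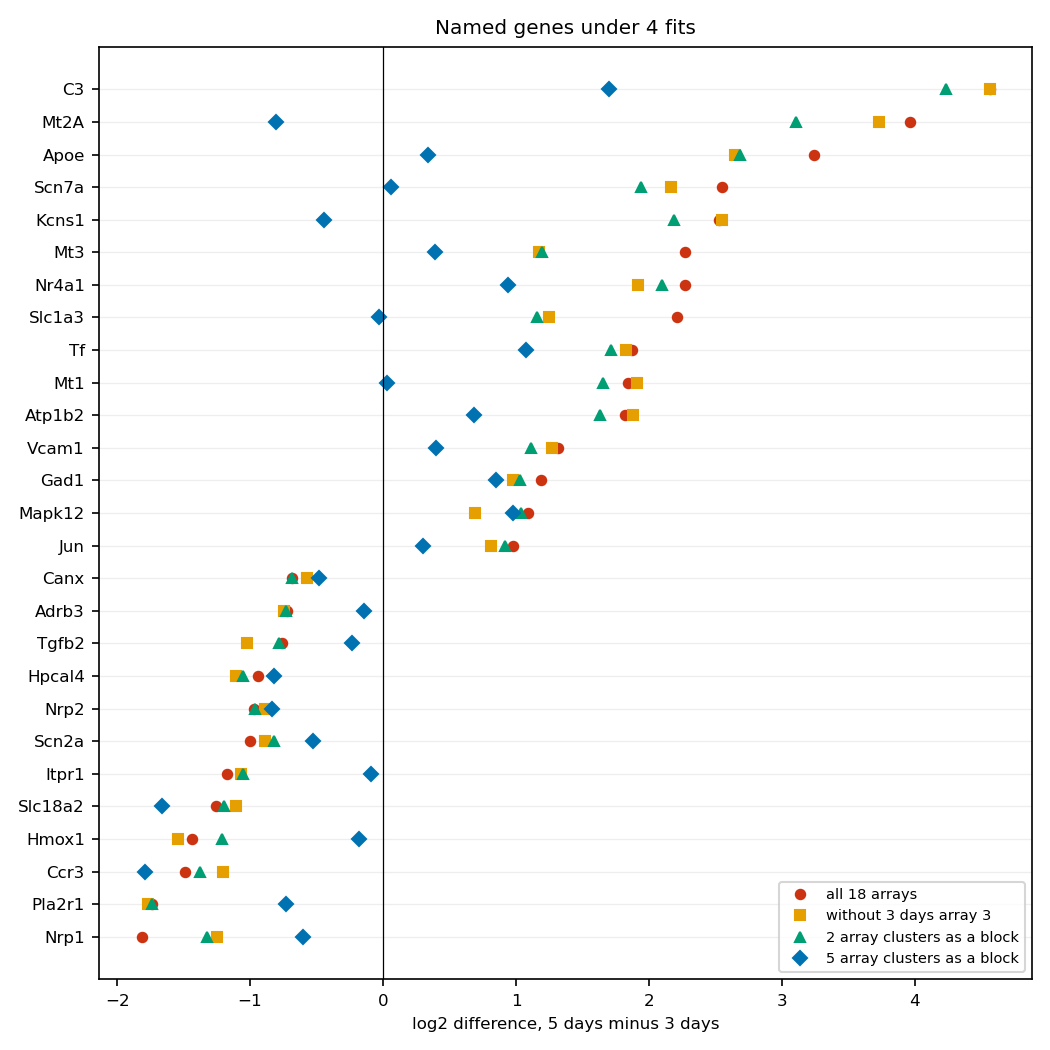
Log2 difference, 5 days minus 3 days (horizontal axis), of 1 probe set for each named gene under 4 fits, with all 18 arrays (red), without 3 days array 3 (orange), with 2 array clusters as a block (green) and with 5 array clusters as a block (blue). The first 3 fits lie close together for most genes, and the blue points lie nearer to 0 for most, with Mt2A at -0.81 where the red point is at 3.96.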

How the data were processed

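The values are linear intensity signals that the authors deposited for 1322 probe sets on 18 arrays, already scaled. Their software and its version were not given in the sources used here. Signals were not rescaled, since all arrays had the same trimmed mean. The 59 control probe sets were left out, values under the 10th percentile (11.3) were raised to it, log2 was taken, and probe sets above the 30th percentile (44.9) on at least 3 arrays were tested. Folds near the floor are understated, and a group wholly at the floor allows only a lower limit, written as at least that fold.

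All arrays were fitted in limma 3.58.1 on R 4.3.3 (lmFit, eBayes) with 5 groups and 13 residual degrees of freedom, and the two-sided contrast of 5 days minus 3 days was adjusted by Benjamini-Hochberg over all 1027 tested probe sets with a threshold of 0.05. The procedure was also run on simulated data, in which the noise was independent between arrays. That simulation held no array clusters and no outlying array, so it does not bear on those features here. Of the probe sets other than controls, 1137 carried 1 symbol in the platform annotation, 8 several and 118 none, and 1132 matched the reference genes by identifier. The tested ones with 1 symbol stood for 621 genes.

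Genes were named where they passed without overlap between the times, then by smallest p in each direction up to 12, with a fixed set of glial genes and up to 4 members a list with the smallest p, and a few named for contrast were chosen after their values were seen. List values use the probe set with the highest mean per gene, while a gene counts as passing if any of its probe sets did. The members, lists and rules were chosen with earlier results of these data known. Clusters came from a tree of the arrays (average linkage on 1 minus the Pearson correlation). Alternatives were other scalings, floors and filters, array weights, clusters as a block and each array left out.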

Additional observations from a re-analysis of the deposited data

Results flagged for a closer look

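Among the 6 controls, which are the reference levels for both exposure times, 2 of the 53 named probe sets had 1 array far below the others. For S100b (S53527mRNA_s_at) control 2 had a signal of 19.7, and the next lowest control had 401.2. Control 2 shares its cluster with 3 days array 3, where the signal was 20. For Slc1a2 (U15098_at) control 3 had 36.5 and the next lowest control had 80.7, while 3 days arrays 1 and 2, in the same cluster, had 55.2 and 58.7. The rule behind these marks is set to mark about 1 in 20 groups by chance, a rate that was not measured on these arrays. The 2 marks among 53 probe sets are no more than that rate.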

How the results depend on the processing

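The count of 3 passing probe sets was 4 under quantile normalization, 2 without the filter and 3 with a floor of 1. It was 7 with median centring, 6 with cyclic loess, 5 with a floor at the 20th percentile, 6 with trend and robust moderation, 18 with the 3 days and 5 days arrays alone and 96 with array weights (51 higher, 45 lower), whose weights ran from 0.214 to 3.20 with the lowest on 3 days array 3. The median of all probe sets was -0.17 as reported and -0.04 with cyclic loess. With the replicate block, for numbers that did not pair the arrays (correlations of same-numbered deviations -0.119, 0.069 and -0.032), 2 passed, both of Tf, and C3 had an adjusted p of 0.0859. With 2 clusters as a block 2 passed, and C3 had 4.23 (adjusted p = 0.0583). Leaving out 1 array at a time gave 0 to 2. With 5 clusters as a block 1 passed, and with the larger cluster alone 0 did, with 156 at an unadjusted p under 0.05 in limma. The last 2 were chosen after seeing the data. For C3 the difference was 3.45 to 5.50 across floors.

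Signs turned only for differences that had not passed. The third Itpr1 probe set, at -0.03, was 0.042 with quantile normalization, 0.030 with median centring, 0.17 with cyclic loess, 0.068 with 2 clusters as a block, and -0.41 to 0.21 with 1 array left out. Gja1 was -1.50 to 0.13 with 1 array left out, the highest without 3 days array 3, and 0.13 in the larger cluster alone. The dimmest Slc1a2 probe set was -0.016 with 2 clusters and -0.25 to 0.40 with 1 array left out, the lowest without 5 days array 2. With 5 clusters as a block, values were 0.35 (Hpcal4, D14819_g_at, reported -0.78), 0.58 (the same Itpr1 probe set), -0.29 (Vcam1, M84488_at, reported 3.47), -0.15 (Scn7a, second probe set, reported 4.84), -0.27 and -0.046 (Glul), -0.13 and -0.58 (Slc1a2), -0.81 (Mt2A), -0.11 (S100b), -0.086, -0.033 and -0.036 (Slc1a3) and -0.45 (Kcns1). The cause was not tested. Signals near the floor of 11.3 carry no order, which limits C3, U31866_g_at of Tf and the dim probe sets.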

Other observations

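Some genes differed between the times chiefly when 3 days array 3 was set aside, and they were chosen after their values were seen. Nefl, the light neurofilament protein of neurons, had on M25638_s_at signals of 105.5, 163.9 and 23.6 at 3 days and 13.3, 14.4 and 60.8 at 5 days, a difference of -1.71 with all arrays and -2.54 without that array. Its brighter probe set AF031880_at had 501, 495.8 and 95.1 against 107.4, 193 and 234.2, which overlap, and a difference of -0.76 with all arrays. Nefm, the medium neurofilament protein, had 152.5, 198.9 and 21.7 against 62.5, 86.4 and 73.3, with -0.24 and -1.25. Enpp2, which makes lysophosphatidic acid, had 22.9, 44.1 and 105.5 against 89.2, 55.1 and 83.7, and the platelet-derived growth factor receptor Pdgfra had 66.6, 66.7 and 204.4 against 151.1, 154.3 and 127.5 on Z14118cds_g_at. Their differences were 0.65 and 0.57 with all arrays and 1.23 and 1.11 without array 3. Bdkrb1, a bradykinin receptor, had 95.7, 118.4 and 45.1 against 24.3, 30.5 and 52, with -1.24 and -1.66. None passed in limma in either fit (smallest adjusted p of these 5 genes without array 3, 0.139).

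Socs3, an inhibitor of cytokine signalling, had 64.7, 53.2 and 339.8 at 3 days and 170.7, 323.3 and 331.4 at 5 days, so array 3 lay with the 5 days arrays. In the controls it had 249.6, 62.7 and 44 in arrays 1 to 3 and 295.8 to 387.3 in arrays 4 to 6.

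Probe sets without a gene name included wide differences. The probe set rc_AI177026_at had 9.4, 4.5 and 2.3 at 3 days and 104.2, 294 and 296.6 at 5 days, with 234.1, 92.9 and 43.4 in controls 4 to 6 and 2.3 to 3.6 in controls 1 to 3 (limma adjusted p = 0.0564). The probe set M11794cds#2_f_at had 544.7, 722.8 and 724.9 against 4552.5, 6642.6 and 6592.2, a difference of 3.15 (limma adjusted p = 0.108) that was -0.06 with the 5 clusters as a block.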
